A study of Mus musculus with 66 samples.

Results

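Krt7, Krt8, Krt18, Krt19 and Krt20 are the keratins of simple epithelia, and they were followed in all 66 RNA sequencing libraries of a mouse bladder study. They were picked by symbol, after matching Ensembl identifiers to GENCODE M21, and all 5 were found among the 39179 genes counted. Each of the 5 passed the filter on low counts in all 35 comparisons, so none was lost from any test. Keratins are intermediate filament proteins that only assemble as pairs of a type I and a type II chain. Krt8 (type II) and Krt18 (type I) are the pair that simple epithelial cells make first in development. Krt7 (type II) and Krt19 (type I) join them in ductal and transitional epithelia, and Krt20 (type I) is a marker of the superficial umbrella cells of the urothelium, the lining of the bladder. In human pathology the same proteins are used to classify carcinomas.

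The tested sample was BC57, a mouse bladder cancer cell line grown in DMEM with serum, and the sample it was set against was normal urothelium (MNU) taken from 9 mice. A pellet of BC57 cells and the urothelium were each divided into a formalin-fixed, paraffin-embedded (FFPE) portion and a fresh frozen (FF) portion. Libraries came from the Ovation SoLo kit at 50 pg, 250 pg or 2 ng of total RNA, from the SMARTer Pico kit at 250 pg or 2 ng, and, for FF RNA alone, from a poly(A) kit at 1 µg. These choices gave 22 groups of 3 libraries: BC57 and MNU, each in FFPE and FF form, by kit and input. BC57 is a single line without stroma, whereas the MNU sample was a tissue, and how the 9 mice were combined is not given in the sources used here. Neither genotype nor age of the mice is given there.

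On mm10, the type II genes and Krt18 lie together on chromosome 15. Krt7 (ENSMUSG00000023039) spans chr15:101411043-101430313 on the plus strand, Krt8 (ENSMUSG00000049382) spans chr15:101996698-102004482 on the minus strand, and Krt18 (ENSMUSG00000023043) spans chr15:102028180-102032027 on the plus strand. Krt8 and Krt18 are neighbours in opposite orientation, 23697 bp apart with 0 counted genes between them, while 24 protein-coding genes lie between Krt7 and Krt8. The other type I genes are on chromosome 11: Krt20 (ENSMUSG00000035775) at chr11:99428403-99438150 and Krt19 (ENSMUSG00000020911) at chr11:100140810-100148665, both on the minus strand. No other counted gene overlapped any of the 5.

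The 250 bases before the RefSeq start of transcription are shown for the 4 genes that have an entry in the RefSeq promoter table (GRCm38.p6, with Krt19 only named here). RefSeq starts can differ from the GENCODE spans above. The Krt7 window lies inside the Krt7 span, the Krt8 and Krt18 windows reach into theirs, and the Krt20 window lies outside its span. The part of these sequences in the differences that follow was not tested. Capitals mark matches, on either strand, to any of 5 motifs searched. These were TATAAA for a TATA-binding site, GGGCGG for a Sp1 site, TGANTCA for an AP-1 site, AGATAA for a GATA factor site and AACNNGTT for a Grainyhead site.
Krt7, chr15:101412153-101412402, plus strand: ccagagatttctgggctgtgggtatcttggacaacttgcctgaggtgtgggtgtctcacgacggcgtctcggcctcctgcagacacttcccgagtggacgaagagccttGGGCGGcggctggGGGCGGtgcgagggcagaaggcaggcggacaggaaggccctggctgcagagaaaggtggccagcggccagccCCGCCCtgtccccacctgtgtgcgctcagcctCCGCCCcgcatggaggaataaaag
Krt8, chr15:102004343-102004592, minus strand: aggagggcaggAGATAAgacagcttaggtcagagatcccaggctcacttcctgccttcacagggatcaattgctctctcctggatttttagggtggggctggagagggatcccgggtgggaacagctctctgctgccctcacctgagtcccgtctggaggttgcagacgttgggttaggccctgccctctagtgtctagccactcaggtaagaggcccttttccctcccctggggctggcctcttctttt
Krt18, chr15:102027966-102028215, plus strand: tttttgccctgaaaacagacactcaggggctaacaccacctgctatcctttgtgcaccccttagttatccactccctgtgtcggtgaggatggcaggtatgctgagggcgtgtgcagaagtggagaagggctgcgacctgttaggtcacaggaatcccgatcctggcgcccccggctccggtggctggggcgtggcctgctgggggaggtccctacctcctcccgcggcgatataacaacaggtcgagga
Krt20, chr11:99438154-99438403, minus strand: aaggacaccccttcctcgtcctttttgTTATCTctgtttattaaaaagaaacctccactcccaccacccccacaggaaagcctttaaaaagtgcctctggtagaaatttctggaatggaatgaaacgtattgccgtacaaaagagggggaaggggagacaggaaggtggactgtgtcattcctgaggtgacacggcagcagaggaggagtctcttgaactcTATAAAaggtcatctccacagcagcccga
The Krt20 window holds TATAAA 29 to 24 bases before the start and 1 AGATAA on the reverse strand. The Krt7 window holds 4 matches to GGGCGG, the Krt8 window 1 AGATAA, and the Krt18 window no match to these letters. Matches did not overlap each other. Over all 32851 RefSeq windows of this length, 12.4% hold TATAAA, 32.7% GGGCGG, 9.99% AGATAA, 6.75% TGANTCA and 3.64% AACNNGTT. GC content was 66% in Krt7, 58% in Krt8, 60.4% in Krt18 and 48% in Krt20, against a median of 52.4% over all windows.

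Libraries held 928722 to 4706030 counts with Ovation, 651879 to 7152648 with SMARTer and 18499591 to 36187226 with poly(A). The 2 shallowest SMARTer libraries were library 3 of urothelium FFPE at 250 pg and at 2 ng, with 651879 and 780106 counts, and they stood apart. Their trimmed-mean (TMM) scaling factors were 1.62 and 1.54, against 0.818 to 1.14 in the other 64 libraries. At 250 pg, library 3 had a Krt8 level of 6.14 CPM, from 4 reads, against a mean of 239 CPM in libraries 1 and 2, and at 2 ng it had 34.6 against 245 CPM. Fold changes, correlations and orders of levels that rest on these libraries are given with and without library 3. Apart from them, the lowest count of any of the 5 genes was 37, for Krt20 in a BC57 FF library at 50 pg. All levels are CPM, a count scaled to a common library total, and all log2 fold changes are TMM-scaled edgeR estimates, so levels and fold changes can differ in size and, between kits, in sign.

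Together the 5 genes took a larger share of the counts in BC57 cells than in urothelium. In FFPE libraries they summed to 0.256% to 0.460% of all counts in the 15 BC57 libraries, against 0.0387% to 0.168% in the 15 MNU libraries, where the lowest was 0.0889% without library 3. In FF libraries the sum was 0.536% to 0.881% in the 18 BC57 libraries, against 0.278% to 0.549% in the 18 MNU libraries. The FF ranges touched across kits, and within each kit and input every BC57 sum was the higher one.

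**Figure D1:**
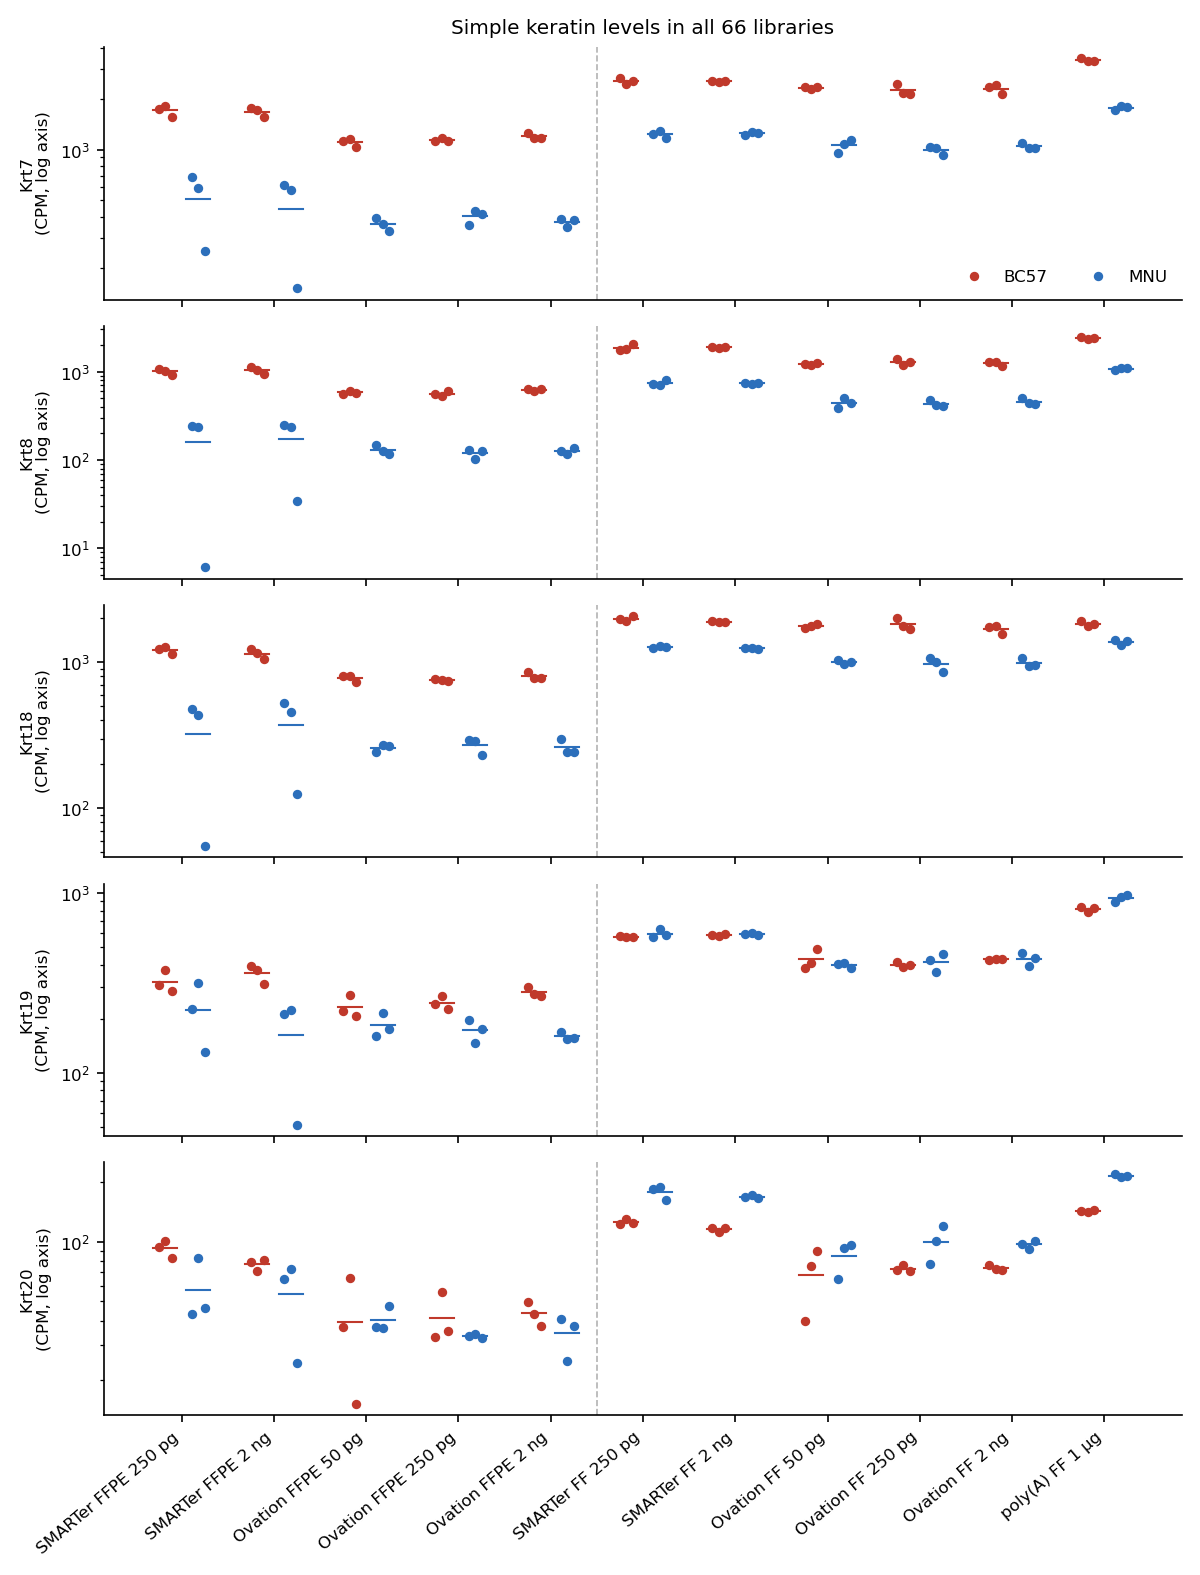
CPM of each of the 5 keratins (log axis) in each of the 66 libraries, by kit, preservation and input, with BC57 left of MNU; points are libraries and short lines are group means. Krt7, Krt8 and Krt18 are higher in BC57 in every condition, Krt19 is close in FF material, and the lowest Krt8 point is the 6.14 CPM of MNU SMARTer FFPE 250 pg library 3.

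The poly(A) libraries, made from the most RNA, gave the reference comparison of BC57 with urothelium, and 4 of the 5 keratins were called there at an adjusted p under 0.05 (91.3% of all tested genes were called). Krt8 had 2445, 2354 and 2386 CPM in BC57, against 1048, 1087 and 1105 CPM in MNU. Krt18, its type I partner, had 1918, 1775 and 1843 CPM in BC57, against 1422, 1323 and 1404 CPM in MNU. Krt7 had 3459, 3360 and 3361 CPM in BC57, against 1705, 1801 and 1793 CPM in MNU. All BC57 libraries lay above all MNU libraries for these 3 genes. Krt19 had 843, 788 and 827 CPM in BC57, against 893, 958 and 978 CPM in MNU. Krt20, the umbrella cell keratin, had 143, 141 and 144 CPM in BC57, against 219, 212 and 213 CPM in MNU. For both of these genes every BC57 library lay below every MNU library. The share of all genes whose libraries separate was not counted, here or in the comparisons below.

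By the edgeR quasi-likelihood test with Benjamini-Hochberg adjustment, Krt8 rose 2.44-fold in BC57 (log2 1.29 ± 0.04 SE, adjusted p = 1.17e-17, n = 3 each). Krt7 rose 2.12-fold (log2 1.08 ± 0.04) and Krt18 1.47-fold (log2 0.56 ± 0.04). Krt20 fell by 0.45 ± 0.04 on the log2 scale (1.37-fold lower, adjusted p = 2.37e-10 by the same test). Krt19 was not called (log2 -0.06, 95% interval -0.15 to 0.02, edgeR adjusted p = 0.175), although its libraries did not overlap in CPM. It was called lower when MNU library 1 was left out (log2 -0.11, adjusted p = 0.00171) and when libraries were scaled by their totals alone (log2 -0.20, adjusted p = 0.000114), a scaling that moved the median of all genes by -0.14. Without BC57 library 2 its sign turned (log2 0.03, not called). No label says that the libraries of a group came from separate cultures or mice, so all p-values here measure the spread between these libraries, which may be technical. In bulk RNA, fewer cells of a type and less RNA per cell cannot be told apart.

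The same pattern held in frozen RNA at far lower input, measured with other kits. The RNA samples are taken to be the same ones, which no label states. With Ovation, 3 of the 5 keratins were called at 50 pg (45.2% of all tested genes called), 3 at 250 pg (48%) and 4 at 2 ng (79.1%). With SMARTer, 4 were called at 250 pg (51.4%) and 4 at 2 ng (77.5%). Over the 6 FF conditions, poly(A) included, the log2 fold change of BC57 over MNU ran from 1.27 to 1.47 for Krt8, from 0.99 to 1.09 for Krt7 and from 0.56 to 0.81 for Krt18, and these 3 genes were called higher each time. Krt19 lay between -0.14 and -0.01 and was called in none of the 6 by edgeR or by DESeq2. Its sign was not stable: scaled by library totals, it was 0.10 at 50 pg, where that scaling moved the median of all genes by 0.12, and without a filter on low counts it was 0.06 in SMARTer libraries at 2 ng. Krt20 lay between -0.56 and -0.42 and was called lower in 4 of 6. At 50 pg, where it was not called, Krt20 had 39.8, 75.7 and 89.1 CPM in BC57, against 64.7, 92.8 and 96.2 CPM in MNU. These libraries overlapped. At 2 ng with Ovation they did not, and Krt20 had 76.1, 72.8 and 71.9 CPM in BC57, against 97.6, 92.1 and 100.8 CPM in MNU. At 250 pg with Ovation, Krt20 was not called with all libraries and was called without MNU library 1 (log2 -0.64, edgeR adjusted p = 0.0336).

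**Figure D2:**
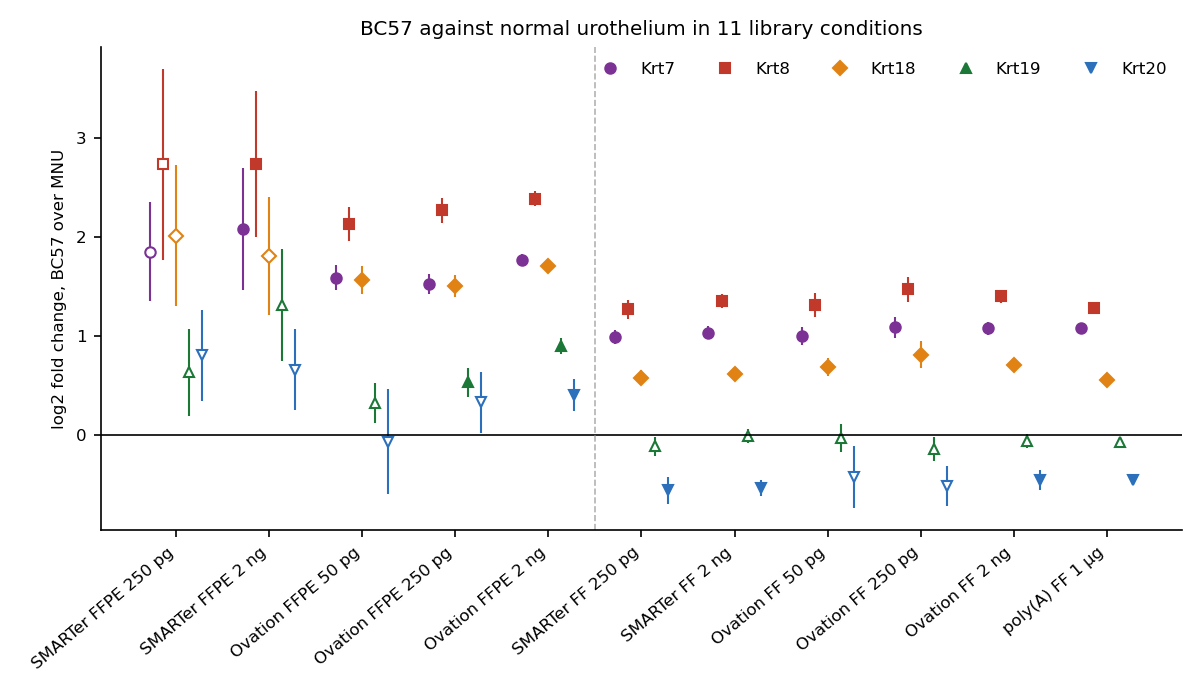
Log2 fold change of BC57 over MNU for each keratin in each of the 11 conditions, with bars of 1 SE; filled points were called at an adjusted p under 0.05 and open points were not. Krt7, Krt8 and Krt18 lie above 0 throughout and higher in FFPE than in FF material, Krt19 lies near 0 in FF material, and Krt20 lies below 0 in FF material.

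In FFPE material the 3 keratins that were higher in frozen BC57 cells were higher again, with larger fold changes, and Krt19 was called higher as well at 2 of the 3 Ovation inputs. With Ovation, 3 of the 5 were called at 50 pg (33.5% of all tested genes called), 4 at 250 pg (52.2%) and 5 at 2 ng (77%), all higher in BC57. At 2 ng, Krt8 had 639, 600.1 and 641 CPM in BC57, against 127, 117 and 135 CPM in MNU (log2 2.39 ± 0.07 SE, edgeR adjusted p = 3.45e-35). Krt18 had 862, 781 and 775 CPM in BC57, against 297, 244 and 244 CPM in MNU (log2 1.70 ± 0.07). Krt7 had 1254, 1173 and 1178 CPM in BC57, against 390.4, 347 and 381 CPM in MNU (log2 1.77 ± 0.06). The libraries of these 3 genes stayed apart at all 3 Ovation inputs. Krt19 had 302, 275 and 267 CPM in BC57, against 168, 155 and 156 CPM in MNU, a 1.87-fold rise (log2 0.90 ± 0.08, edgeR adjusted p = 1.96e-15). Krt19 was also called at 250 pg (log2 0.53 ± 0.15) and not at 50 pg (log2 0.33 ± 0.21).

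Krt20 gave no firm result in FFPE material. At 2 ng with Ovation it had 49.5, 43.3 and 37.6 CPM in BC57, against 40.9, 24.9 and 37.6 CPM in MNU, and the libraries overlapped. It was called higher (log2 0.40 ± 0.16, edgeR adjusted p = 0.0217), but not with DESeq2 (adjusted p = 0.0813), not with scaling by library totals (log2 0.32, adjusted p = 0.0724), and not without BC57 library 1 (log2 0.32, adjusted p = 0.115) or without MNU library 2 (log2 0.24, adjusted p = 0.177). At 50 pg it had 37.1, 65.6 and 15.3 CPM in BC57, against 37.2, 36.6 and 47.3 CPM in MNU, and its log2 fold change of -0.06 turned to 0.33 without BC57 library 3 and to 0.08 without MNU library 3. In FF material the sign of Krt20 was negative in all 6 conditions.

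With SMARTer, the same comparison in FFPE material rested on the urothelium libraries that stood apart. At 250 pg, 0 of the 5 keratins were called by edgeR (9.38% of all tested genes called), 3 had an unadjusted p under 0.05, and DESeq2 called 3. Of all 13267 genes tested, edgeR called 1244, 3154 had an unadjusted p under 0.05, and DESeq2 called 2549. Without library 3 in both groups, where 21.4% of all tested genes were called, edgeR called Krt8 (log2 2.23), Krt7 (log2 1.57) and Krt18 (log2 1.55), against log2 values of 2.74, 1.85 and 2.02 with it. At 2 ng, 2 were called (30%), Krt7 (log2 2.09, edgeR adjusted p = 0.0395) and Krt8 (log2 2.74, adjusted p = 0.0286). Krt8 there had 1139, 1049 and 932 CPM in BC57, against 250.1, 239 and 34.6 CPM in MNU. With the replicate number as a block, Krt18 was called too (log2 2.06, edgeR adjusted p = 0.0326). Without library 3 in both groups, 4 of the 5 were called (62.7% of all tested genes called), with log2 values of 2.36 for Krt8, 1.75 for Krt7, 1.48 for Krt18 and 1.01 for Krt19. Leaving out MNU library 1 or 2, or BC57 library 1 or 2, left 0 called, and leaving out BC57 library 3 left 1. Calls over all genes, 4489 with all libraries, fell as well. They numbered 1504 and 1416 without MNU library 1 and 2, and 1121 and 1176 without BC57 library 1 and 2. BC57 and MNU libraries did not overlap for Krt7, Krt8 and Krt18 at either input. Scaling by library totals moved the median of all genes by -0.22 at 250 pg and -0.30 at 2 ng and gave 1 and 3 keratin calls. Calls over all genes under that scaling are not given here.

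Krt8 had a larger log2 fold change than Krt18 in each of the 11 conditions. The ratio of type II to type I counts within a library, which needs no scaling, gives the same comparison without a choice of scaling. In poly(A) libraries the ratio of Krt8 to Krt18 counts was 1.30 ± 0.026 in BC57 and 0.782 ± 0.043 in MNU (mean ± SD, n = 3 each). In Ovation FF libraries at 2 ng it was 0.738 ± 0.007 in BC57 and 0.458 ± 0.015 in MNU, and in SMARTer FF libraries at 2 ng it was 0.988 ± 0.007 in BC57 and 0.592 ± 0.010 in MNU. The ratio itself differed between kits, and BC57 over MNU was 1.47 to 1.67 in the 3 Ovation FFPE conditions and 1.54 to 1.67 in the 6 FF conditions. In SMARTer FFPE libraries it was 2.15 at 250 pg and 2.14 at 2 ng, and 1.60 and 1.84 without library 3. BC57 and MNU libraries did not overlap in 11 of 11 conditions, and a two-sided exact permutation test of 3 against 3 libraries cannot give a p below 0.1. The 11 conditions are taken to share RNA samples, so they are not read as independent repeats of the result. How often other pairs of genes separate in this way was not counted. Both genes lack overlapping neighbours, but how reads that map to several places were counted is not given in the sources used here, and Krt8-ps, an annotated pseudogene of Krt8, was not analysed here.

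**Figure D3:**
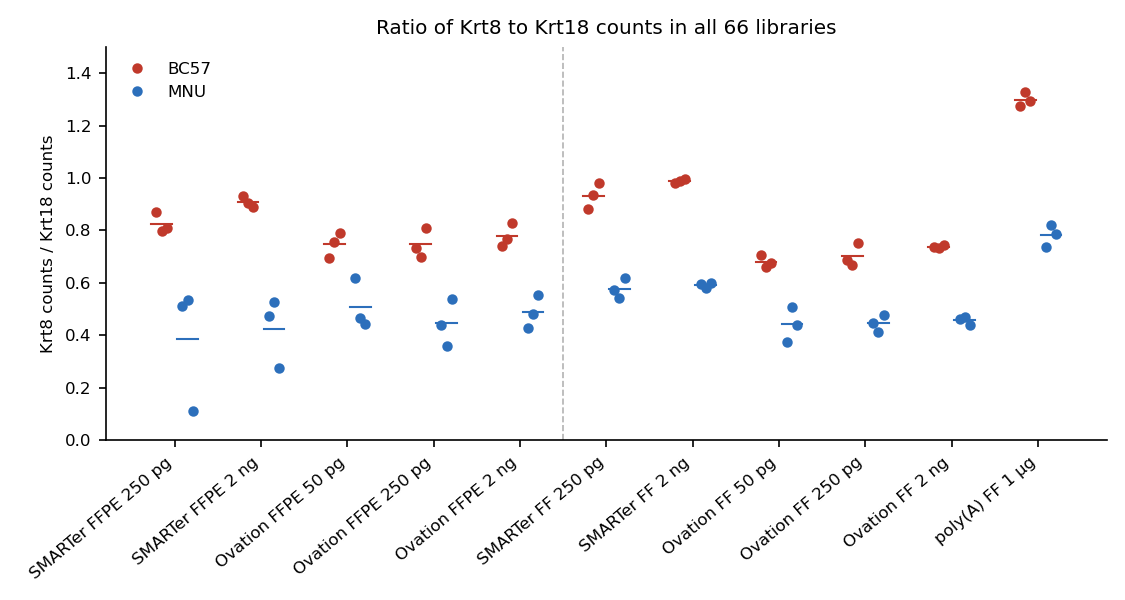
Ratio of Krt8 to Krt18 counts in each of the 66 libraries (vertical axis, no unit) by kit, preservation and input, with BC57 left of MNU; points are libraries and short lines are group means. BC57 lies above MNU in each of the 11 conditions, and the lowest MNU point, 0.111, is library 3 of SMARTer FFPE at 250 pg.

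The type I partners shifted against each other as well. In poly(A) libraries the ratio of Krt19 to Krt18 counts was 0.444 ± 0.005 in BC57 and 0.683 ± 0.050 in MNU, and that of Krt20 to Krt18 was 0.0774 ± 0.0024 in BC57 and 0.156 ± 0.004 in MNU (mean ± SD, n = 3 each). In Ovation FFPE libraries at 2 ng, Krt19 to Krt18 was 0.349 ± 0.004 in BC57 and 0.613 ± 0.042 in MNU, and Krt20 to Krt18 was 0.0538 ± 0.0047 in BC57 and 0.131 ± 0.027 in MNU. All BC57 libraries lay below all MNU libraries for both ratios in 11 of 11 conditions, so relative to Krt18 both Krt19 and Krt20 were lower in BC57 in FFPE as in FF material. The ratio of Krt7 to Krt8, both type II, was 1.42 ± 0.009 in BC57 and 1.64 ± 0.019 in MNU with poly(A), and 1.92 ± 0.070 in BC57 and 2.95 ± 0.132 in MNU with Ovation FFPE at 2 ng. BC57 libraries lay below MNU libraries for this ratio in 10 of 11 conditions, and they overlapped in SMARTer FF at 250 pg, with 1.26 to 1.51 in BC57 and 1.47 to 1.82 in MNU. These ratios compare counts, not levels per length, and only their contrast between samples is read here. For these ratios too, the conditions are taken to share RNA samples, and the share of other gene pairs that separate was not counted.

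Between genes, levels were compared per kilobase of the longest annotated transcript. In poly(A) libraries of BC57 the order was Krt18 at 1284 ± 49.8 CPM per kb, Krt8 at 1223 ± 23.4, Krt7 at 829 ± 13.9, Krt19 at 520 ± 17.8 and Krt20 at 74.0 ± 0.936 (SD, n = 3). In poly(A) libraries of MNU it was Krt18 at 962 ± 36.9 CPM per kb, Krt19 at 598 ± 28.2, Krt8 at 552 ± 14.9, Krt7 at 431 ± 12.9 and Krt20 at 112 ± 2.01. Krt18 and Krt8 in BC57 differed by less than the sum of their SDs, and the other neighbours in each order by more. Krt18 came first and Krt20 last in 22 of 22 groups, with and without library 3 of the urothelium SMARTer FFPE groups. The place of Krt7 depends on the transcript: its exons cover 7049 bp in all, its longest transcript 4094 bp and its shortest coding transcript 642 bp, and with that last length Krt7 came first in 22 of 22 groups, again with and without library 3.

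Other keratins, from the stratified epithelia, had poly(A) log2 fold changes as far out as -9.41 for Krt15, 8.04 for Krt6a and, from 2 counts in MNU, 8.94 for Krt16, while the 5 simple keratins ran from -0.45 to 1.29. Of 22 stratified and other epithelial keratins listed, 16 were tested in the poly(A) libraries, 7 were called higher and 9 lower in BC57, where 42.8% of all tested genes were called higher and 48.5% lower, with a median log2 fold change of -1.72, against 0.56 for the 5 simple keratins and -0.12 for all genes tested. Summed, these keratins had 661 to 682 CPM in BC57 and 3563 to 3796 CPM in MNU, while the 5 simple keratins had 8418 to 8807 CPM in BC57 and 5288 to 5493 CPM in MNU. Krt15, a basal-layer type I keratin, fell to 2.26 ± 0.293 CPM in BC57, against 1735 ± 42.7 CPM in MNU. Krt6a and Krt16, keratins of stressed and wounded epithelium, went the other way: Krt6a had 136 ± 2.15 CPM in BC57 and 0.564 ± 0.035 CPM in MNU, and Krt16 had 1281 counts in BC57 and 2 in MNU, a ratio of 527 (95% counting interval 145 to 4353). The basal pair, named here after its values were seen, split: Krt5 (type II) had 19.9 ± 0.868 CPM in BC57 and 1679 ± 71.9 CPM in MNU, and Krt14 (type I) had 350.0 ± 8.65 CPM in BC57 and 1.87 ± 0.142 CPM in MNU. In poly(A) RNA the simple keratins made up the larger part of the listed keratin counts in both samples.

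**Figure D4:**
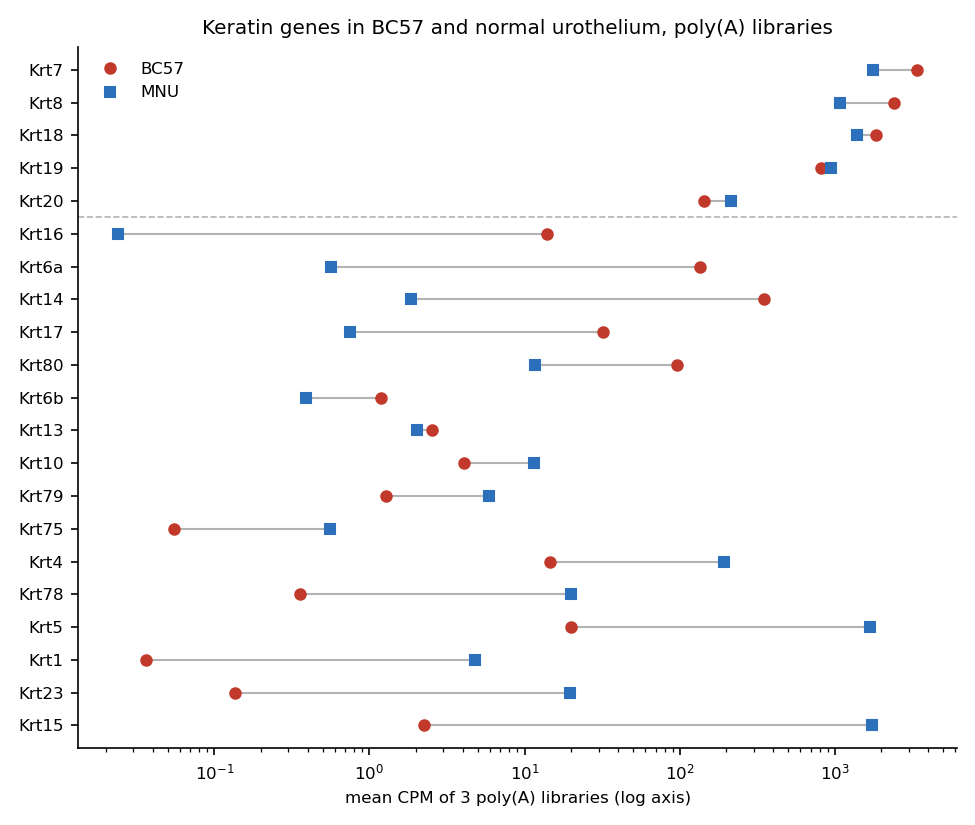
Mean CPM in poly(A) libraries (log axis) of the 5 simple keratins, above the dashed line, and of the 16 other keratins tested, below it, in BC57 and in MNU; each point is the mean of 3 libraries. The simple keratins lie close together in both samples, whereas Krt15, Krt5, Krt14, Krt6a and Krt16 lie far apart.

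Genes that act on or with simple keratins were called in both directions, in a comparison that called 91.3% of all tested genes. Of the linkers and partners that bind keratin filaments, 19 of 20 were tested in the poly(A) libraries: 7 were higher in BC57, 9 lower and 3 not called, with a median log2 fold change of -0.05. Pkp2, a desmosomal plaque protein, had 67.1 ± 1.71 CPM in BC57 and 9.77 ± 1.18 CPM in MNU. Dst, which ties keratin to hemidesmosomes, had 45.7 ± 1.22 CPM in BC57 and 472 ± 1.39 CPM in MNU. Sfn, a 14-3-3 protein, had 64.8 ± 2.42 CPM in BC57 and 456 ± 9.34 CPM in MNU. Of transcription factors of simple keratin genes and urothelium, 17 of 18 were tested, and 15 were lower in BC57 and 2 higher (median log2 -1.46), against 48.5% lower and 42.8% higher over all tested genes. Gata3, a factor of urothelial differentiation, had 2.96 ± 0.328 CPM in BC57 and 344 ± 5.79 CPM in MNU, Grhl3, a Grainyhead factor, had 4.70 ± 0.67 CPM in BC57 and 199.6 ± 4.75 CPM in MNU, and Trp63, the basal-cell factor p63, had 0.740 ± 0.088 CPM in BC57 and 426 ± 20.5 CPM in MNU. Of 11 other intermediate filament genes tested of 14 listed, 5 were higher, 5 lower and 1 not called. Des, the muscle filament protein desmin, fell by 5.20 on the log2 scale, Synm fell by 4.89 and Gfap fell by 3.18.

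Krt20 is an umbrella cell gene, and the other genes of that cell were lower in BC57 too, with 1 exception. Of 7 uroplakin and umbrella cell genes, 6 were lower in BC57 and 1, Cd24a, was higher (median log2 -6.76), against 48.5% lower and 42.8% higher over all tested genes. Upk1a had 1.66 ± 0.324 CPM in BC57 and 2615 ± 203 CPM in MNU, and Upk2 had 2.98 ± 0.105 CPM in BC57 and 1015 ± 35.03 CPM in MNU. Upk3a had 3 counts in BC57 and 126046 in MNU, a ratio of 51104 (95% counting interval 17487 to 247813). Krt20, with its 1.37-fold difference, kept 143 ± 1.80 CPM in BC57.

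Markers of other cell types differed with the samples as well. In poly(A) libraries, where 48.5% of all tested genes were called lower in BC57 and 42.8% higher, all 7 fibroblast markers were called lower in BC57, where they summed to 7.04 to 8.75 CPM, against 9810 to 10405 CPM in MNU, with Col1a1 at 0.559 ± 0.189 CPM in BC57 and 2528 ± 190 CPM in MNU. All 6 smooth muscle, all 5 endothelial and all 7 leukocyte markers were called lower too, with sums of 9.70 to 11.6, 0.750 to 1.12 and 22.02 to 22.3 CPM in BC57, against 218 to 232, 269.5 to 279.6 and 391 to 416 CPM in MNU. C1qa, a macrophage marker, had 0 counts in the BC57 poly(A) libraries. Of the mesothelial markers, whose cells also make simple keratins, 5 of 9 were tested, 2 higher and 3 lower in BC57. Msln, a mesothelial surface protein also found on carcinomas, had 1024 ± 23.4 CPM in BC57 and 0.238 ± 0.019 CPM in MNU, and Bnc1, a basonuclin zinc finger protein, had 3969 counts in BC57 and 1 in MNU, a ratio of 3263 (95% counting interval 585 to 128918). Aldh1a2, a retinaldehyde dehydrogenase, went the other way, with 2 counts in BC57 and 3654 in MNU, a ratio of MNU over BC57 of 2222 (95% counting interval 615 to 18357). The part of stromal RNA in the keratin differences was not tested.

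All 5 keratins were lower in FFPE than in FF RNA of both samples with Ovation, and in BC57 with SMARTer too. At 2 ng with Ovation, 5 of the 5 were lower in FFPE than in FF BC57 cells (32.3% of all tested genes called), and 5 of the 5 in urothelium (37.3%). Krt18 in MNU had 297, 244 and 244 CPM in FFPE, against 1075, 937 and 964 CPM in FF, a 3.72-fold difference (log2 -1.89 ± 0.07 SE, edgeR adjusted p = 8.09e-32). Krt18 in BC57 had 862, 781 and 775 CPM in FFPE, against 1735, 1767 and 1560 CPM in FF, a 1.89-fold difference (log2 -0.92 ± 0.06). FFPE and FF libraries did not overlap for any of the 5 genes in either sample, and the share of all genes without overlap was not counted. Krt19 in MNU had 168, 155 and 156 CPM in FFPE, against 464, 395 and 437 CPM in FF, and Krt19 in BC57 had 302, 275 and 267 CPM in FFPE, against 427, 431 and 432 CPM in FF. Its frozen libraries overlapped between the samples, and its fixed libraries did not. In BC57, Krt7 fell by 0.79, Krt8 by 0.84, Krt19 by 0.47 and Krt20 by 0.62 on the log2 scale, and in MNU, Krt7 fell by 1.46, Krt8 by 1.81, Krt19 by 1.41 and Krt20 by 1.45. The median over all genes tested was within 0.01 of 0 in both comparisons. Scaling by library totals moved that median by -0.14 in BC57 with Ovation and kept all 5 keratins lower and called in both samples.

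With SMARTer, 5 of the 5 keratins were lower in FFPE than in FF BC57 cells (17.8% of all tested genes called). Krt8 there had 1139, 1049 and 932 CPM in FFPE, against 1880, 1870 and 1889 CPM in FF (log2 -0.84 ± 0.11, edgeR adjusted p = 0.000128). In urothelium, 0 of the 5 were called by edgeR (1.87%), 5 had an unadjusted p under 0.05, and DESeq2 called 5. Of all 14512 genes tested there, edgeR called 271, 3536 had an unadjusted p under 0.05, and DESeq2 called 1835. FFPE and FF libraries did not overlap for any of the 5 keratins, and the share of all genes without overlap was not counted. Krt8 had 250.1, 239 and 34.6 CPM in FFPE, against 741, 732 and 745 CPM in FF (log2 -2.25 ± 0.67). Without library 3 in both groups, where 22.8% of all tested genes were called, edgeR called all 5 lower, and Krt7 fell by 1.22, Krt8 by 1.75, Krt18 by 1.51, Krt19 by 1.61 and Krt20 by 1.46 on the log2 scale. Scaling by library totals moved the median of all genes by 0.31 in urothelium, and 1 keratin, Krt20, was called lower.

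**Figure D5:**
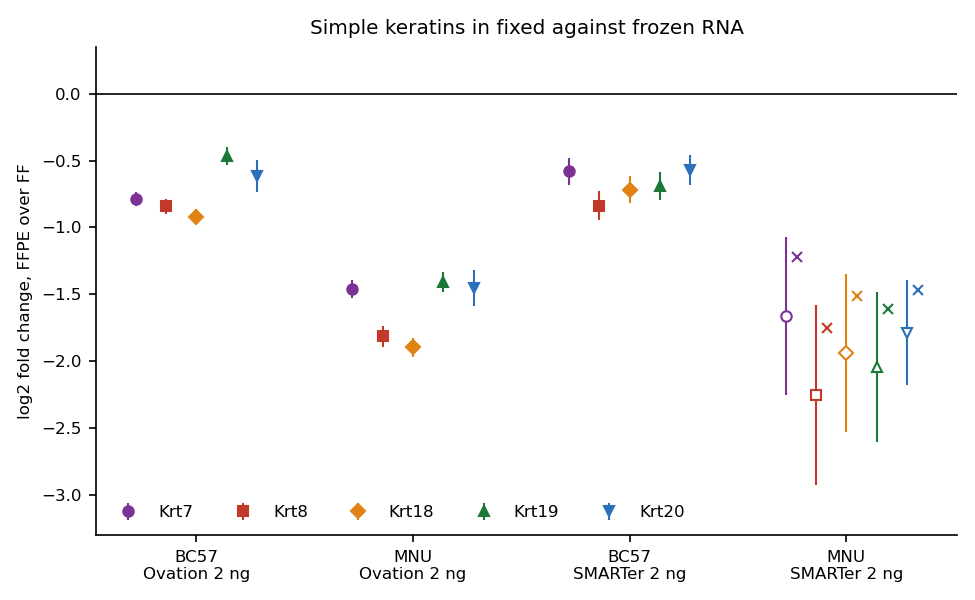
Log2 fold change of FFPE over FF at 2 ng for each keratin, in BC57 and in MNU, with Ovation and with SMARTer, with bars of 1 SE; filled points were called, open ones were not, and crosses give MNU SMARTer without library 3 in both groups. All points lie below 0, and those of MNU lie below those of BC57.

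Whether the difference of FFPE from FF RNA was alike in both samples was tested as an interaction, the FFPE effect in BC57 minus that in MNU. With Ovation, 5 of the 5 keratins were called (5.9% of all tested genes called), each with a smaller loss in BC57. The difference was 0.95 ± 0.10 for Krt8, 0.95 ± 0.10 for Krt18, 0.92 ± 0.10 for Krt19, 0.81 ± 0.19 for Krt20 and 0.65 ± 0.09 for Krt7 on the log2 scale, with edgeR adjusted p from 6.19e-11 for Krt18 to 0.00355 for Krt20. With SMARTer, 0 of the 5 were called by edgeR (0%), 2 had an unadjusted p under 0.05, and DESeq2 called 0, with 3 at an unadjusted p under 0.05. Of all 16574 genes tested, 1423 had an unadjusted p under 0.05 by edgeR, and DESeq2 called 72. The values there were 1.14 for Krt7, 1.46 for Krt8, 1.28 for Krt18, 1.41 for Krt19 and 1.28 for Krt20, with SEs of 0.46 to 0.76. Without library 3 in both samples and forms, edgeR called all 5 (1.16% of all tested genes called), with values of 0.62 for Krt7, 0.91 for Krt8, 0.77 for Krt18, 0.95 for Krt19 and 0.80 for Krt20. Scaling by library totals, which moved the median of all genes by -0.38, called 0 with all libraries.

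Other genes were called in the same comparisons. Of all tested genes, 17.9% were called lower and 19.3% higher in Ovation FFPE urothelium. There, 6 of 7 other keratins tested were lower and 1 was not called (median log2 -1.30), with Krt15 down by 1.38 and Krt5 down by 1.03. Of the keratin linkers, 12 of 19 were lower and 1 higher, and Dsp, the desmosomal plakin that anchors keratin, fell by 0.91 on the log2 scale. Of the transcription factors, 8 of 16 were lower, and of the uroplakin and umbrella cell genes 4 of 7 (median log2 -0.31). Upk2 itself was not called (log2 -0.09 ± 0.07). Of the fibroblast markers, 5 of 7 were higher in FFPE urothelium and 1 lower (median log2 0.62). Their sum was 12965 to 13267 CPM in FFPE and 9419 to 10023 CPM in FF urothelium, while in BC57 it was 14.2 to 19.9 CPM in FFPE and 13.9 to 16.3 CPM in FF. In BC57, 3 of 8 other keratins tested were lower, and 4 of 19 linkers were lower and 3 higher. Of all tested genes there, 15.6% were called lower and 16.6% higher (32.3% in either direction). The part of this difference in fibroblast RNA in the keratin losses of urothelium was not tested, and fixation and the mix of cells in the urothelium portions cannot be told apart here.

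RNA input gave no called difference in any of the 5 keratins. Over 8 comparisons of the lowest input with 2 ng, none of 40 tests of the 5 keratins was called by edgeR or by DESeq2, and 0 had an unadjusted p under 0.05 with either tool. By edgeR the background was as low. It called 0.0266% of all tested genes in BC57 Ovation FF, 0.0216% in MNU Ovation FFPE and 0% in the other 6 comparisons. The share of genes with an unadjusted edgeR p under 0.05 ran from 142 of 14410 (MNU SMARTer FFPE) to 793 of 11259 (BC57 Ovation FF). DESeq2 called 171 of all genes in BC57 Ovation FFPE, 28 in BC57 Ovation FF, 22 in MNU Ovation FFPE and 16 in MNU Ovation FF. In SMARTer it called 7 in BC57 FFPE and 2 in MNU FF. The 0 of 40 is not read as a trait of the keratins. The log2 fold changes ran from -0.20 ± 0.12 SE (Krt19, 50 pg over 2 ng in BC57 Ovation FFPE) to 0.47 ± 0.63 (Krt19, 250 pg over 2 ng in MNU SMARTer FFPE), which was 0.34 ± 0.21 without library 3 in both groups. Outside the urothelium SMARTer FFPE libraries the highest was 0.32 ± 0.30 (Krt20, 50 pg over 2 ng in MNU Ovation FFPE). A p that misses the threshold does not show that the levels were equal.

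For Krt7, Krt8, Krt19 and Krt20 the spread between libraries of a group was narrower at each higher input. The median coefficient of variation of Krt20 over groups was 28.9% at 50 pg, 7.49% at 250 pg, 4.56% at 2 ng and 1.53% at 1 µg, leaving out urothelium SMARTer FFPE. For Krt19 it was 14.02%, 8.36%, 4.42% and 4.07% in the same order, for Krt8 8.32%, 7.61%, 5.73% and 2.30%, and for Krt7 7.10%, 5.43%, 4.22% and 2.33%. Krt18 showed no such order, with 4.51% at 50 pg, 5.27% at 250 pg, 6.60% at 2 ng and 3.86% at 1 µg. These groups also differ in kit and sample, and the differences in spread were not tested.

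Keratin levels differed between kits, and the sign of some differences rested on the scaling. In the comparisons with poly(A), kit, RNA input and poly(A) selection changed together and cannot be told apart. Against poly(A), Ovation at 2 ng gave lower values for 4 of the 5 keratins in BC57 (59.9% of all tested genes called) and for 5 in MNU (56.7%). In BC57, Krt8 had 1278, 1294 and 1163 CPM with Ovation, against 2445, 2354 and 2386 CPM with poly(A) (log2 -0.76 ± 0.05 SE, edgeR adjusted p = 1.95e-13). Krt19 and Krt20 fell by 0.75 and 0.77 and Krt7 by 0.38 on the log2 scale, all without overlap. Krt18 was not called in BC57 (log2 0.05 ± 0.05), and its sign turned with scaling by library totals (-0.13, called lower), without a filter on low counts (-0.05) and without BC57 Ovation library 2 (-0.011). Those totals moved the median of all genes by -0.18 in BC57 and -0.21 in MNU. In MNU, Krt8 fell by 1.04, Krt20 by 0.93, Krt19 by 0.91, Krt7 by 0.54 and Krt18 by 0.27 on the log2 scale. Krt18 had the highest Ovation over poly(A) value of the 5 genes in both samples under both scalings.

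SMARTer at 2 ng against poly(A) gave 4 called in BC57 (57.5%) and 2 in MNU (57.7%), all higher in SMARTer by TMM scaling. Scaling by library totals moved the median of all genes by -0.55 in both samples and turned the signs of these calls round, except for Krt18 in BC57. Krt7 in BC57 had 2557, 2518 and 2537 CPM with SMARTer, against 3459, 3360 and 3361 CPM with poly(A), with a log2 fold change of 0.13 by TMM and -0.42 by totals. Krt8 in BC57 had 0.20 by TMM and -0.35 by totals, Krt20 0.25 and -0.30, and Krt18 0.60 and 0.04. In MNU, Krt18 had 0.41 by TMM and -0.15 by totals, and Krt20 0.21 and -0.35. SMARTer and poly(A) libraries overlapped in CPM for Krt18 in BC57 and for no other of these. Under both scalings Krt18 had the highest SMARTer over poly(A) value of the 5 genes in both samples.

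SMARTer against Ovation gave higher values for 5 of the 5 keratins in BC57 FF (52.9%), BC57 FFPE (34.4%) and MNU FF (48.5%), under both scalings. In BC57 FF, Krt20 had 117, 112 and 118 CPM with SMARTer, against 76.1, 72.8 and 71.9 CPM with Ovation (log2 1.01 ± 0.09 SE, edgeR adjusted p = 2.17e-09). Krt8 rose by 0.95, Krt19 by 0.80, Krt18 by 0.53 and Krt7 by 0.50 on the log2 scale, and scaling by totals, which moved the median of all genes by -0.36, gave 0.59, 0.44, 0.17 and 0.15. In BC57 FFPE and MNU FF it moved that median by -0.22 and -0.33. In MNU FFPE, 0 of the 5 were called (1.13%), with 0 at an unadjusted p under 0.05 by edgeR and 0 called by DESeq2. Of all 14466 genes tested there, 2927 had an unadjusted p under 0.05 by edgeR, and DESeq2 called 990. Without library 3 in both groups, where 20% of all tested genes were called, edgeR called all 5 there, from 0.56 for Krt19 to 1.18 for Krt20.

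The contrast of BC57 with urothelium itself differed a little between low-input kits and poly(A). Ovation FF at 2 ng gave a higher BC57 over MNU log2 fold change than poly(A) for 4 of the 5 keratins (8.32% of all tested genes called), from 0.25 for Krt7 and Krt19 to 0.40 for Krt18. SMARTer gave a higher one for 3 (8.44%), Krt8 and Krt18 at 0.30 each and Krt19 at 0.29. These calls depended on the scaling: with RLE size factors in the same test they numbered 1 for Ovation and 0 for SMARTer, and with library totals 2 and 0. With DESeq2, which changes the test as well, they numbered 2 and 1. Calls over all genes fell too with RLE, from 1432 to 863 for Ovation and from 1474 to 752 for SMARTer. With library totals, calls over all genes fell to 700 for SMARTer. The median over all genes was itself 0.11 and 0.15, moved by -0.11 for SMARTer with library totals. Among single poly(A) libraries, leaving out BC57 library 1, 2 or 3 or MNU library 2 or 3 left 2 keratin calls for Ovation. Leaving out BC57 library 2 left 1 keratin call for SMARTer, with 751 calls over all genes. Over all single libraries left out, the keratin calls ran from 2 to 5 for Ovation and from 1 to 4 for SMARTer. Calls over all genes in those runs reached 2863 for Ovation, against 1432, and ran from 653 to 3065 for SMARTer, against 1474.

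Across the 22 group means, Krt7, Krt8 and Krt18 ran closely together, Krt20 stood furthest from them, and Krt19 lay between. Pearson's r of log2(CPM + 1) was 0.980 between Krt7 and Krt8, 0.971 between Krt8 and Krt18 and 0.966 between Krt7 and Krt18. Krt19 and Krt20 had r = 0.910 with each other, while Krt20 had r = 0.616 with Krt7 and 0.624 with Krt8. Without library 3 of the urothelium SMARTer FFPE groups these values were 0.993, 0.965, 0.969, 0.921, 0.594 and 0.626 in the same order. Krt19 had r = 0.821 with Krt7, 0.816 with Krt8 and 0.856 with Krt18, and 0.793, 0.805 and 0.849 without library 3. In a search of 7715 genes whose mean reached 20 CPM, the closest to Krt7 were Maea (0.986), Rnf10 (0.985) and Atp5a1 (0.980), and the closest to Krt8 were Sbds (0.982) and Ezr (0.979). For Krt18 they were Hsp90b1 (0.968) and Ubb (0.962), for Krt19 Por (0.958), Fau (0.954) and Actn4 (0.945), and for Krt20 Cttn (0.975), Por (0.948) and Eef1b2 (0.944). The places of some of these rested on library 3: without it, Sbds and Ezr came 6th and 9th for Krt8, Rnf10 4th for Krt7, Fau 22nd (0.892) for Krt19 and Eef1b2 15th (0.906) for Krt20. The 22 points are taken to share 4 RNA samples, and they share kits and library totals, so these are descriptions only.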

How the data were processed

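RNA sequencing was analysed from 66 libraries in 22 groups of 3. The deposited tables hold raw counts per gene; the authors aligned reads to mm10 with STAR, handled them with SAMtools and counted them with featureCounts, per the submitters' processing notes. What the sources used here do not give is their versions, the annotation, the strand setting and how multi-mapping reads were treated. Deposited normalized tables were not used here, and 0 per-sample columns of the count tables were left out. Symbols came from GENCODE M21, and 1486 genes without a symbol, at most 2.47% of any library, stayed in every test. Total counts per library ran from 651879 to 36187226, which sets counting error, and 0 pairs of libraries were identical.

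In each of 35 comparisons, filterByExpr dropped genes with few reads, TMM factors scaled the libraries, and every remaining gene was tested by quasi-likelihood in edgeR 4.0.16 under R 4.3.3, with Benjamini-Hochberg adjustment over all genes tested and calls at an adjusted p under 0.05. Each fit held only the groups compared. The script was tested on simulated data. Levels are CPM of library totals. A counting interval covers 95% counting error only, since PCR reads are not independent molecules. Alternatives were DESeq2 1.42.0, RLE size factors, no filter, each library left out, library 3 left out of both groups, and the replicate number as a block. Scaling by library totals, the shortest coding transcript, and correlations and orders without library 3 were added after seeing the data.

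Named were the 5 keratins everywhere, at most 3 genes of each other list with the largest change among those called with a mean of at least 1 CPM, and the 3 genes closest to each keratin. A result that this rule names for Krt8 and Krt18 is not reported here. Members and lists were chosen with earlier results of these data known. No label pairs libraries across groups. Same-numbered libraries deviated together, with every correlation over 0.1, in 5 of 31 comparisons, all of SMARTer libraries, and the block is given there where it changes a call.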

Additional observations from a re-analysis of the deposited data

Results flagged for a closer look

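For each keratin, the difference of FFPE from FF RNA was not alike in the 2 samples with Ovation at 2 ng, by a test of the contrast itself. The FFPE effect in BC57 minus that in MNU was 0.65 for Krt7, 0.95 for Krt8, 0.95 for Krt18, 0.92 for Krt19 and 0.81 for Krt20 on the log2 scale, and edgeR called all 5, as it did with scaling by library totals. The fibroblast marker sum was higher in FFPE than in FF urothelium, 13141 ± 157 against 9677 ± 312 CPM (SD, n = 3 each). In BC57 this sum was 17.9 ± 3.20 against 15.1 ± 1.21 CPM. Its part in the keratin difference was not tested. Fixation and the mix of cells in the urothelium portions cannot be told apart here.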

How the results depend on the processing

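In the 9 comparisons of BC57 with MNU outside SMARTer FFPE, Krt7, Krt8 and Krt18 were called higher under each alternative run. Over the alternatives that leave out no library, and outside the comparisons of RNA input, values whose sign turned were, without a filter on low counts, Krt18 Ovation over poly(A) in BC57 (-0.0493), Krt19 BC57 over MNU in SMARTer FF at 2 ng (0.0585), Krt19 SMARTer over poly(A) in BC57 (-0.0214), and in MNU Krt7 (-0.0381) and Krt8 (-0.0839). With library totals they were Krt18 Ovation over poly(A) in BC57 (-0.13), Krt19 BC57 over MNU at 50 pg FF (0.10), and SMARTer over poly(A) for Krt7 (-0.42 in BC57, -0.50 in MNU), Krt8 (-0.35, -0.55), Krt20 (-0.30, -0.35), Krt19 in BC57 (-0.49) and Krt18 in MNU (-0.15). With the replicate number as a block, Krt19 SMARTer over Ovation in MNU FFPE was -0.11. Among the 5 keratins, calls of the Ovation minus poly(A) contrast numbered 2 with DESeq2, 1 with RLE and 2 with library totals, against 4, and those of the SMARTer contrast 1, 0 and 0, against 3. For SMARTer FFPE at 250 pg, against 0, they numbered 3 with DESeq2, 1 with RLE, 1 with library totals, 3 without a filter, 1 with the block and 3 without library 3; at 2 ng, against 2, they numbered 0 without a filter and 4 without library 3. For MNU SMARTer FFPE over FF, against 0, they numbered 5 with DESeq2, 1 with library totals and 5 without library 3; the SMARTer fixation interaction and SMARTer over Ovation in MNU FFPE gave 5 without library 3, against 0; and SMARTer over poly(A) in MNU gave 5 with library totals, against 2. Leaving out 1 library gave 2 to 5 calls for the Ovation contrast, 1 to 4 for the SMARTer contrast, 0 to 3 for SMARTer FFPE at 250 pg, 0 to 4 at 2 ng, and 0 to 5 for MNU SMARTer FFPE over FF, for the SMARTer fixation interaction and for SMARTer over Ovation in MNU FFPE. Ranges of log2 fold changes whose sign turned there were -0.011 to 0.0825 (Krt18 Ovation over poly(A), BC57), -0.14 to 0.0745 (Krt19 at 50 pg FF), -0.00301 to 0.0703 (Krt19, SMARTer FF 2 ng), -0.11 to 0.0271 (Krt19, poly(A)), -0.14 to 0.57 (Krt19 SMARTer over Ovation, MNU FFPE), -0.64 to 0.33 (Krt20 at 50 pg FFPE) and -0.0261 to 0.0383 (Krt8 SMARTer over poly(A), MNU). Of the 40 values that compare RNA input, none of them called, 7 turned sign with library totals, 2 without a filter, 1 with DESeq2 and 1 with RLE, all within 0.080 of 0. Calls over all genes moved in several of these runs as well. For SMARTer FFPE at 250 pg they numbered 2549 with DESeq2 and 2963 without library 3, against 1244. For MNU SMARTer FFPE over FF they numbered 1835 and 3375, against 271. In the Ovation and SMARTer contrasts with poly(A) they numbered 863 and 752 with RLE, against 1432 and 1474. With 1 library left out, they reached 2863 in the Ovation contrast and ran from 653 to 3065 in the SMARTer contrast. They ran from 161 to 2628 for SMARTer FFPE at 250 pg and from 1121 to 7408 at 2 ng. For MNU SMARTer FFPE over FF they ran from 0 to 4124, and for SMARTer over Ovation in MNU FFPE from 10 to 4124. In the SMARTer fixation interaction they reached 168. The cause of these shifts was not tested. Outside library 3 of urothelium SMARTer FFPE, the lowest count of the 5 genes was 37 reads, for Krt20 at 50 pg.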
